A study of Homo sapiens with 24 samples.

Results

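The transcriptome of K562 cells early in their second day after synchronization was compared with that of the middle of the second cell cycle. K562 is an established human cell line from a chronic myelogenous leukaemia with erythroid features. A single elutriated culture in RPMI with BCS (bovine calf serum, 10%) and P/S was followed, with 1 library of total RNA every 2 h from 0 h to 46 h. The early second cycle was taken as the 3 libraries at 24, 26 and 28 h, and the middle second cycle as the 3 libraries at 34, 36 and 38 h, so 6 of the 24 libraries entered the comparison. The question was how much of the order of the first cycle was still present after a day in culture, as synchrony is lost. The first cycle was therefore measured in the same way at the hours lying 24 h earlier, with 0, 2 and 4 h as its early and 10, 12 and 14 h as its middle window. No library belonged to both cycles, and the libraries at 16 h and 18 h, which the study treats as technically shifted, were in no window. The study also saw a milder shift by eye at 32 h, and that library was in no window either. All groups shared the line, the medium and the elutriation, and they differed only in time.

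Centrifugal elutriation separates cells by size, and small cells are mostly in G1. As such cells enter S phase, E2F transcription factors raise a G1/S programme of cyclin E, the MCM helicase and replication and repair enzymes. Later, the B-MYB and FOXM1 programme raises mitotic cyclins, kinases, kinesins and kinetochore proteins through promoters that carry CHR and CCAAT elements. Because the bulk signal is an average over cells, loss of synchrony flattens both waves, and a smaller swing per cell cannot be told apart from a smaller share of cells in that phase.

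Values were FPKM, the read fragments of a gene scaled to its transcript length and to the size of the library, and differences are early minus middle on log2(FPKM + 1). Each time point was sampled once, so the 3 consecutive libraries of a window stood in for replicates, and p-values measure the spread among neighbouring time points of one culture. Sums of FPKM ran from 462948 to 500802 in the 6 libraries, and the number of reads behind a value is unknown. The 28 h library stood somewhat apart, with 298 genes at least 1.5-fold away from the other libraries of its window against 126 to 204 genes in the other 5. In the first cycle this count was higher still, at 832 genes for 0 h, 396 for 2 h and 581 for 4 h. All 8 erythroid and globin markers of K562 were measured, summing to 3252–3905 FPKM early and 3248–4140 FPKM in the middle window, whereas 1 of 6 fibroblast and 1 of 4 monocyte markers had a row in the table.

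Most G1/S genes had a higher mean early in the second cycle, as in the first. CCNE2 (ENSG00000175305), a cyclin E that activates CDK2 at S phase entry, was at 28.5, 30.9 and 25.6 FPKM at 24, 26 and 28 h and at 19.8, 19.3 and 18.97 FPKM at 34, 36 and 38 h. All early libraries lay above all middle libraries, a difference of 0.52 ± 0.07 (SE, n = 3 libraries per window; limma, adjusted p = 0.0403). In the first cycle it had been at 21.05, 38.9 and 33.8 FPKM early and at 18.1, 15.7 and 13.5 FPKM in the middle, a difference of 0.91 ± 0.21 (limma, adjusted p = 0.0508). Its highest value moved from 38.9 FPKM at 2 h to 30.9 FPKM at 26 h, and from 40 h to 46 h it stayed between 19.1 and 20.6 FPKM.

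MCM5 (ENSG00000100297), a subunit of the replicative helicase, kept nearly the same swing in both cycles. It was at 85.1, 94.0 and 102 FPKM early and at 73.5, 69.4 and 66.2 FPKM in the middle of the second cycle, again without overlap. The difference of 0.42 ± 0.08 missed the threshold (limma, adjusted p = 0.0686), and the first-cycle difference was 0.48 ± 0.11. Its maximum came at 4 h (120 FPKM) and again at 28 h (102 FPKM), 24 h later.

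UNG, the uracil-DNA glycosylase that removes uracil from newly made DNA, was the other G1/S gene past the threshold. Its values were 47.9, 48.4 and 43.9 FPKM early against 32.9, 33.7 and 34.8 FPKM in the middle, a difference of 0.46 ± 0.05 (limma, adjusted p = 0.0369). E2F1, the transcription factor that heads the programme, was at 19.4, 19.8 and 16.2 FPKM against 14.0, 13.5 and 13.2 FPKM, with no overlap but an adjusted p of 0.0741 (limma). Both swings had been larger on the first day, at 0.74 for UNG and 0.86 for E2F1. The difference between cycles was not significant for either gene (limma interaction, adjusted p = 0.248 and 0.214).

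**Figure D1:**
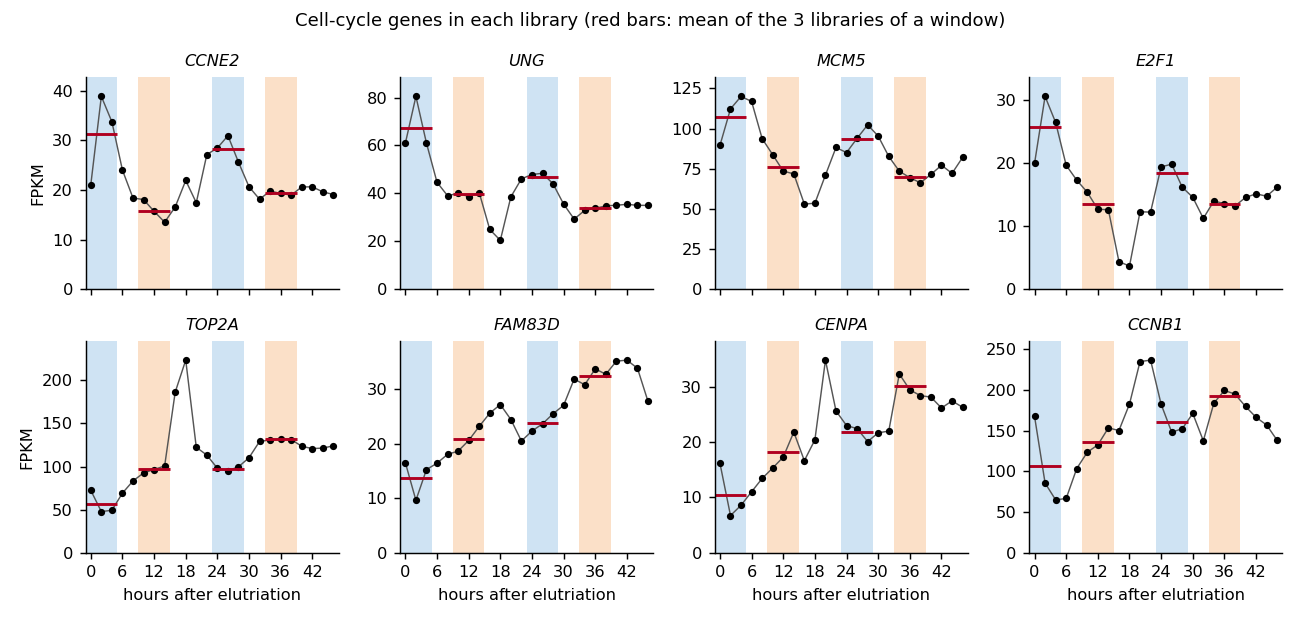
FPKM of 8 cell-cycle genes in each of the 24 libraries against hours after elutriation, with early windows in blue, middle windows in orange and red bars for the mean of the 3 libraries of a window. CCNE2, UNG, MCM5 and E2F1 have their second-day maxima at 24 to 28 h, and TOP2A, FAM83D, CENPA and CCNB1 are lower in the blue than in the orange second-cycle window.

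Of 93 G1/S genes, 81 had a higher mean early in the second cycle, and in 45 all early libraries lay above all middle libraries, against 14% of the 12253 genes tested. In 1 the windows were apart in the other direction, against 11.4% of all genes. The median difference was 0.13, compared with 0.02 over all genes and with 0.18 for the same genes in the first cycle. Of the 93, 71 had the same sign in both cycles, and 49 of these had the smaller difference in the second. Over all 12253 genes these counts were 6764 and 4411, so a smaller second difference was common among all genes too. The G1/S median lay between 0.11 and 0.17 when any of the 6 libraries was left out. Only CCNE2 and UNG passed the test among the 93, where 0.0979% of all genes were called higher early.

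The 4 groups within this list had medians from 0.09 to 0.20. The G1 cyclins and E2F factors had the median of 0.20 against 0.36 in the first cycle, and all 12 were higher early, 9 of them without overlap. The 12 did not include the cyclin D1 gene CCND1, which was listed among G1 regulators. It was lower early, with a difference of -0.84 after -0.68 in the first cycle. Licensing genes, which load the helicase onto origins, had a median of 0.13 against 0.21, with 11 of 21 apart and higher early. CDC6, which loads the MCM complex, was at 73.2, 78.2 and 86.0 FPKM early and at 62.0, 61.4 and 61.8 FPKM in the middle. TICRR, which acts later in origin firing, lay the other way at 11.6, 11.7 and 11.8 FPKM against 12.7, 12.7 and 12.6 FPKM.

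Genes of repair and chromatin assembly had a median of 0.14 against 0.24, and 16 of 28 were apart and higher early. Among them CHAF1B, a subunit of the histone chaperone CAF-1, was at 30.7, 34.5 and 35.0 FPKM against 26.4, 23.3 and 26.9 FPKM. Replication enzymes and nucleotide synthesis, unlike the other 3 groups, had the larger median in the second cycle, 0.09 against 0.02, with 9 of 32 apart and higher early. Their first-cycle median changed sign with single libraries, with -0.031 without 4 h or 14 h, -0.0086 without 2 h and 0.078 without 0 h. CLSPN, a mediator of the replication checkpoint, was at 52.5, 60.0 and 65.1 FPKM early and 47.1, 45.6 and 45.3 FPKM in the middle, a difference of 0.35 after 0.43 on the first day.

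G2/M genes showed the opposite order. TOP2A, the topoisomerase that untangles sister chromatids before mitosis, was at 98.0, 95.4 and 99.6 FPKM early and at 131, 132 and 131 FPKM in the middle window. The difference of -0.42 ± 0.04 passed the test (limma, adjusted p = 0.0323), and the first cycle gave -0.79 ± 0.15. FAM83D, which brings casein kinase 1 to the spindle, was at 22.3, 23.6 and 25.5 FPKM against 30.8, 33.7 and 32.7 FPKM (difference -0.43, limma, adjusted p = 0.0456).

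CENPA, the centromeric histone H3 variant, had the largest G2/M difference at -0.44, from 22.99, 22.4 and 20.1 FPKM early to 32.3, 29.4 and 28.4 FPKM in the middle (limma, adjusted p = 0.0528). CCNB1, the cyclin B that drives entry into mitosis, was at 182, 148 and 152 FPKM early and at 184, 200 and 195 FPKM later. The windows of CCNB1 were apart by a narrow margin and the difference of -0.26 was not significant (limma, adjusted p = 0.176). CCNA2, the cyclin A of S phase and G2, overlapped between windows at 116, 110 and 104 FPKM against 111, 113 and 112 FPKM.

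Of 114 G2/M genes, 77 had a lower mean early, and 38 (33.3%) were lower in every early library than in any middle library, against 11.4% of all genes. Another 11 (9.65%) were apart and higher early, against 14% of all genes. TOP2A and FAM83D were the 2 that passed the test, where 0.4% of all genes were called lower early. The median was -0.06 after -0.22 in the first cycle. Of the 114, 66 had the same sign with a smaller difference, as had 4411 of all 12253 genes. The first cycle also had 38 of these genes without overlap in this direction. Over all genes the count in this direction was 2181 in the first cycle and 1401 in the second.

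Here too the groups differed. Spindle, kinesin and cytokinesis genes were lower early in 32 of 34 cases, 19 without overlap, with a median of -0.12 after -0.28. Mitotic kinases and cyclins had a median of -0.16 after -0.31, with 13 of 23 apart and lower early. AURKB, the kinase of the chromosomal passenger complex, was at 35.1, 40.2 and 38.6 FPKM against 52.3, 45.0 and 45.2 FPKM, and AURKA, the centrosomal kinase, was at 52.3, 48.4 and 50.3 FPKM against 61.3, 61.6 and 62.6 FPKM. Neither passed the test (limma, adjusted p = 0.112 and 0.0517).

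In contrast, kinetochore and checkpoint genes had a second-cycle median of -0.01 after -0.26 in the first. SPC25, a subunit of the NDC80 complex that holds microtubules, reversed its order. It was at 69.3, 70.6 and 86.9 FPKM early and 67.2, 66.4 and 65.8 FPKM in the middle, a difference of 0.18 against -0.62 on the first day, and the change between cycles passed the test (limma interaction, adjusted p = 0.0228). The 28 h library was the highest of the 3 early values, and without it the difference of SPC25 was 0.073. Chromosome structure genes (median 0.03 after -0.10) and subunits and regulators of the APC/C, the ubiquitin ligase of mitotic exit (0.0075 after 0.0019), had medians near 0.

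**Figure D2:**
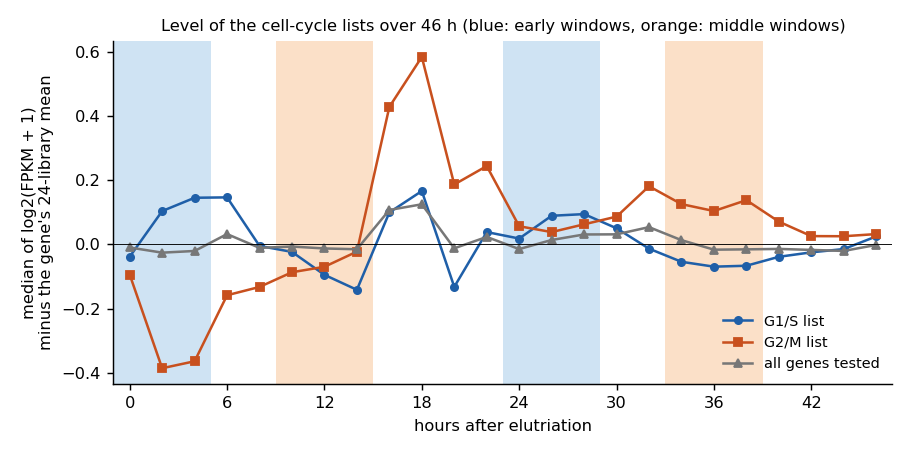
Median over the genes of each list of log2(FPKM + 1) minus the gene's mean over 24 libraries, against hours after elutriation, with early windows in blue and middle windows in orange. The G1/S median lies at 0.02 to 0.09 at 24 to 28 h and at -0.07 to -0.05 at 34 to 38 h, and the G2/M median lies at 0.04 to 0.06 and then at 0.10 to 0.14.

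The hour of the maximum was compared as well. On the second day 49 of 93 G1/S genes (52.7%) had their highest value at 24, 26 or 28 h, compared with 21.6% of all genes, and their median peak moved from 6 h to 28 h. The median G2/M peak moved from 20 h to 32 h, while that of all genes moved from 6 h to 32 h as well. At 24 to 32 h 74 of 114 G2/M genes peaked, and 7898 of all 12253, and at 34 to 38 h it was 20.2% of the G2/M genes against 9.52% of all. The median range of a gene within a day went from 0.94 to 0.38 for G2/M genes and from 0.59 to 0.44 for G1/S genes. Over all genes it went from 0.57 to 0.49 on the log2 scale. Peaks and ranges left out 16 h and 18 h, so the first day held fewer libraries than the second. The 32 h library was kept, although the study saw a mild shift there by eye. Outside 16 h and 18 h, the median level of all genes was highest at 32 h (0.054). The part of this library in the peaks was not tested. The plot of list levels shows the smaller second wave, with the G2/M crest at 32 to 38 h and its highest point at 32 h.

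Promoter sequences are shown for 4 of these genes because the elements that set the timing of both programmes lie there. Sequences come from RefSeq (GRCh38.p14), 250 bases before the annotated start, 5′ to 3′ on the strand of the gene. Capitals mark E2F letters (TTTCCCGC, TTTGGCGC, TTTCGCGC or TTTGCCGC), CHR letters (TTTGAA or TTCGAA) and CCAAT, on either strand, and matches may overlap one another. UNG (chr12:109097347-109097596, + strand) and E2F1 (chr20:33686386-33686635, - strand) were higher early, CENPA (chr2:26785806-26786055, + strand) and TOP2A (chr17:40417897-40418146, - strand) lower early.
UNG: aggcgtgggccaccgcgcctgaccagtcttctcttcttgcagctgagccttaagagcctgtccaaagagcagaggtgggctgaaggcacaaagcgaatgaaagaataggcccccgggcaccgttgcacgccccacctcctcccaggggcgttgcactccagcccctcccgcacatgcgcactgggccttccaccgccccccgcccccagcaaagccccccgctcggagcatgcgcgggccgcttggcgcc
E2F1: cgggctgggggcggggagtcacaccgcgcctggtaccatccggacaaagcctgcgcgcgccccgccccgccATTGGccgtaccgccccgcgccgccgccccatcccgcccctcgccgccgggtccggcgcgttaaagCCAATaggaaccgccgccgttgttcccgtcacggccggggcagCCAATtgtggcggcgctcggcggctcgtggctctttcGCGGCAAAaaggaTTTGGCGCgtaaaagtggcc
CENPA: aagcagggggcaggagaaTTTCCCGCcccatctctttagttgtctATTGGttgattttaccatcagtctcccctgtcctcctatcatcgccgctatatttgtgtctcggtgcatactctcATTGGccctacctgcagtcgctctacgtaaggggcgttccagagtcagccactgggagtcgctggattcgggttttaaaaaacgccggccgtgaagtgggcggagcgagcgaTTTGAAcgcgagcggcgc
TOP2A: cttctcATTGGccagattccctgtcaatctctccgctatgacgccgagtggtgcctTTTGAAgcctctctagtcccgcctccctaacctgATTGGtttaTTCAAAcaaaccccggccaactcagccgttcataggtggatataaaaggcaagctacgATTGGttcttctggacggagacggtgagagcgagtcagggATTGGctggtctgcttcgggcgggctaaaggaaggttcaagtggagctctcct

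E2F1 held 2 E2F matches, starting 33 and 20 bases before the start, and 3 CCAAT matches. CENPA held an E2F match 232 bases before the start, a CHR match 18 bases before it and 2 CCAAT matches. TOP2A held 2 CHR and 4 CCAAT matches, and UNG held none of these letters within the 250 bases. With the first 50 bases of the transcript included, E2F letters were in 42.9% of 77 matched G1/S promoters and in 5.7% of all 8993 matched promoters. CHR letters were in 63.9% of 97 matched G2/M promoters against 11% of all, and CCAAT was in 58.4% of the G1/S and 67% of the G2/M promoters against 37.9%. Among called genes, E2F letters were in none of the 6 matched promoters higher early, and CHR letters were in 18.2% of the 33 lower early.

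Genes of a list were then split by whether their promoter held the letters. Of 33 G1/S genes with E2F letters, 54.5% were higher in all early libraries, compared with 40.9% of the 44 without, with medians of 0.13 and 0.10. Over all genes the same split gave 19.3% and 14%. The split of G1/S genes was not particular to E2F letters. By CCAAT it was 53.3% of 45 with and 37.5% of 32 without, and over all genes 15.1% and 13.8%. By CHR letters it was 66.7% of only 6 G1/S genes with and 45.1% of 71 without. Of 62 G2/M genes with CHR letters, 38.7% were lower in all early libraries, compared with 22.9% of the 35 without, with medians of -0.09 and -0.04, and over all genes 14.8% and 11.5%. For CCAAT in G2/M genes the shares were 41.5% of 65 with and 15.6% of 32 without, and over all genes 11.9% and 11.8%. These shares are descriptions, and a match is not a measured binding site.

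Across all genes, limma called 61 of 12253 genes (0.498%) between the second-cycle windows at an adjusted p of 0.05, 12 higher and 49 lower early. The windows of all 61 were apart, and 52 were protein coding. With differences of at least 1.5-fold required and windows apart, 27 genes (0.22%) were higher and 40 (0.326%) lower early. At unadjusted p under 0.05 limma gave 2211 genes.

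The count of calls depended on single libraries. It was 0 without 24 h (2179 genes at unadjusted p under 0.05), 0 without 26 h (1946 genes), 71 without 28 h, 1 without 34 h, 3 without 36 h and 1 without 38 h. In each of these fits all 61 genes had an unadjusted p under 0.05, but they had been chosen by their p in the same libraries. Their sign could not change, because their windows were apart. Without 28 h, 39 of the 61 were still called, among them CCNE2, UNG, TOP2A and FAM83D.

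The same fit gave many more calls in the first cycle, 216 higher (1.76%) and 437 lower (3.57%) early. Upper-quartile scaling gave 238 and 204, and quantile normalization 183 and 193. These counts too rested on single libraries, with 0 calls by limma without 2 h (2381 genes at unadjusted p under 0.05) or without 10 h (2181 genes), 2 without 12 h or without 14 h, 1550 without 0 h and 1477 without 4 h. Differences were also wider, with an SD over genes of 0.26 in the first and 0.18 in the second cycle.

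Genes called in the first cycle were then followed into the second. They were chosen by their first-cycle difference, so smaller medians in the second cycle and a low slope follow in part from the choice. The size of that part was not tested. Of the 216 higher early, 151 (69.9%) were again higher early a day later, and 65 (30.1%) were apart in that direction and 18 (8.33%) in the other, where all genes gave 14% and 11.4%. Their median difference went from 0.51 to 0.09. Of the 437 lower early, 243 (55.6%) kept the sign, and their median went from -0.39 to -0.02. Over all 12253 genes 55.2% had the same sign in both cycles, with both directions pooled. In the second cycle 6776 of all genes were higher and 5477 lower early. The pooled share is therefore not the base of one direction alone. Of the 437, 65 (14.9%) were apart in the same direction, near the 11.4% of all genes, and 28 (6.41%) in the other, against 14%.

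Over the 653 first-cycle calls, the second-cycle difference increased by 0.148 per unit of first-cycle difference (Pearson r = 0.44 across genes, which are not independent). The slope was between 0.102 and 0.183 when any second-cycle library was left out. It was 0.185 without 0 h and 0.0611 without 4 h, both over a changed set of genes. The share with the same sign was 60.3%, and it ranged from 52.7% without 34 h to 67.2% without 38 h.

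**Figure D3:**
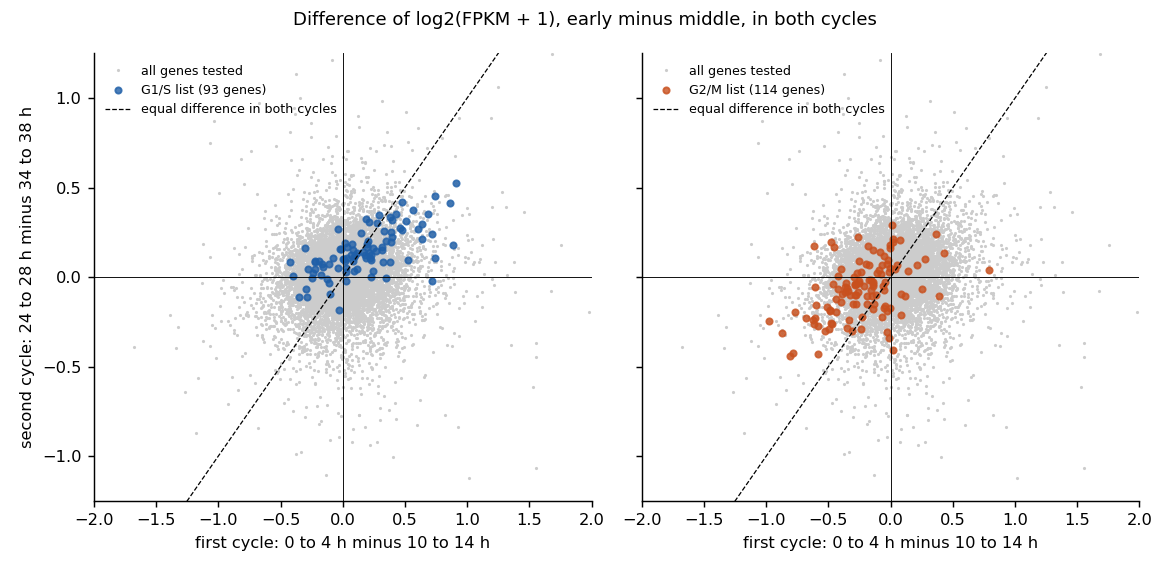
Difference of log2(FPKM + 1), early minus middle, in the first cycle (horizontal axis) and in the second cycle (vertical axis) for all genes tested in grey and for the G1/S list (left, blue) and the G2/M list (right, orange), with a dashed line of equal difference. Most G1/S genes lie above 0 on the vertical axis and most G2/M genes below. Another 12 genes lie outside the axes.

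Called in both cycles were 8 genes, and 7 of them kept their direction. They were 1.23% of the first-cycle calls, where 0.498% of all genes were called in the second cycle. They were 13.1% of the second-cycle calls, where the first cycle called 1.76% of all genes higher and 3.57% lower early. UNG, TSPOAP1 and the lincRNA VPS13B-DT were higher early in both cycles. TSPOAP1, a scaffold protein at presynaptic sites, went from 5.55, 3.88 and 3.36 FPKM to 1.71, 1.56 and 1.22 FPKM in the second cycle. TOP2A, HSPA1A, ID1 and LCP2 were lower early in both. ID1, an inhibitor of basic helix-loop-helix factors, was at 30.4, 37.8 and 31.4 FPKM early and 53.5, 50.6 and 52.3 FPKM in the middle. STAR, which carries cholesterol into mitochondria, changed direction, from 56.6, 55.7 and 51.6 FPKM against 40.7, 43.8 and 45.4 FPKM on the first day to 54.2, 56.3 and 57.1 FPKM against 75.1, 71.1 and 71.6 FPKM on the second (limma interaction, adjusted p = 0.0111).

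The difference between cycles itself passed the test for 275 genes (2.24%). The second-cycle minus the first-cycle difference was positive in 165 and negative in 110. A positive value also arises where a gene lower early in the first cycle was less so in the second, as for HSPA1A. This split turned to 102 and 168 with upper-quartile scaling and to 90 and 125 with quantile normalization. Of the 275, 180 were among the first-cycle calls, 57 of them higher and 123 lower early in that cycle. Leaving out 1 of the 12 libraries moved the count to between 12 (without 12 h or 38 h) and 1326 (without 4 h). The other counts were 637 without 0 h, 45 without 2 h, 38 without 10 h, 49 without 14 h, 138 without 24 h, 43 without 26 h, 139 without 28 h, 160 without 34 h and 13 without 36 h.

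Several gene groups with large differences on the first day had medians near 0 on the second. Replication-dependent histone genes, transcribed in S phase, had a median difference of 0.72 over 28 genes in the first cycle and 0.02 in the second. Of the 28, 8 differed between cycles by the interaction test, against 2.24% of all genes. H2AC6 was at 118, 126 and 85.2 FPKM early and 48.7, 55.0 and 56.3 FPKM in the middle of the first cycle, but at 79.8, 79.1 and 77.1 FPKM against 62.9, 68.8 and 73.1 FPKM in the second. The first-day maximum of 25 of the 28 (89.3%) fell at 0 to 4 h, against 32.4% of all genes. Histone genes are near-identical copies, so reads may have been split between them.

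Heat shock genes, the chaperones induced by HSF1, had a median of -0.36 over 18 genes in the first and -0.02 in the second cycle. The interaction test was passed by 5 of them, against 2.24% of all genes. HSPA1A, whose copy HSPA1B has nearly the same sequence, was at 52.4, 27.6 and 25.4 FPKM early and 110, 116 and 101 FPKM in the middle of the first cycle. In the second cycle it was at 41.3, 41.7 and 44.3 FPKM against 56.7, 57.6 and 53.7 FPKM, still lower early (difference -0.39, limma, adjusted p = 0.0383) but by less (limma interaction, adjusted p = 0.0368).

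Immediate early genes, which respond within minutes to growth factors or handling, had medians of 0.37 and then -0.04 over 14 genes. The first-cycle median rested on the 0 h library and was -0.015 without it. JUN, a subunit of AP-1, was at 63.0 FPKM at 0 h, 9.44 FPKM at 2 h and 7.34 FPKM at 4 h. It differed by 1.75 in the first cycle, or 0.83 without 0 h, and by 0.18 in the second, and none of the 14 passed the interaction test. Glycolysis and hypoxia genes had medians of 0.19 and 0.02 over 28 genes, with 3 past the interaction test, against 2.24% of all genes. ALDOC, the aldolase of brain, was at 76.3, 73.2 and 61.4 FPKM early against 49.7, 40.7 and 36.2 FPKM in the first cycle, and at 30.0, 34.5 and 32.7 FPKM against 37.2, 36.0 and 35.6 FPKM in the second (limma interaction, adjusted p = 0.0222).

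**Figure D4:**
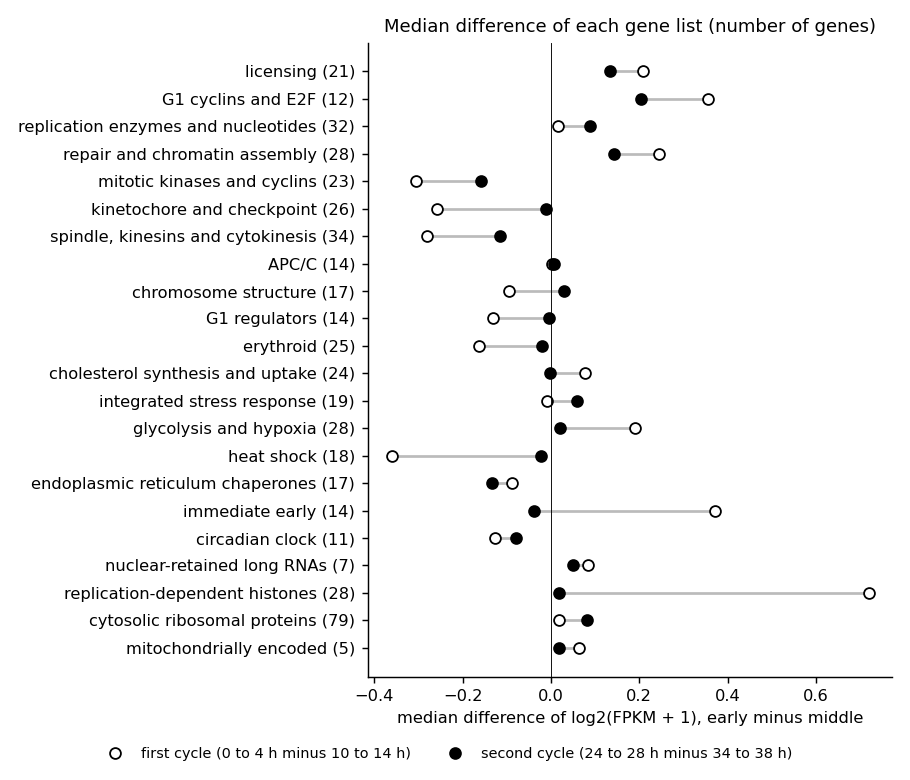
Median difference of log2(FPKM + 1), early minus middle, of each gene list in the first cycle (open circles) and in the second cycle (filled circles), with the number of genes in brackets. The second-cycle medians lie between -0.16 and 0.20, whereas the first-cycle medians reach -0.36 for heat shock genes and 0.72 for histone genes.

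Endoplasmic reticulum chaperones had a second-cycle median further from 0 than the first, -0.13 after -0.09 over 17 genes. Of these, 7 (41.2%) were lower in all early libraries, against 11.4% of all genes, and none was higher, against 14%. HSPA5, the main chaperone of that compartment, was at 96.6, 96.1 and 110 FPKM early and 140, 138 and 126 FPKM in the middle, and SDF2L1, a partner of its cochaperones, was at 218, 212 and 171 FPKM against 269, 275 and 258 FPKM. Neither passed the test (limma, adjusted p = 0.0655 and 0.0920).

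The medians of the other lists lay between -0.08 and 0.06. Erythroid genes (25) were at -0.02, cholesterol synthesis and uptake genes (24) at -0.0032, integrated stress response genes (19) at 0.06, clock genes (11) at -0.08, G1 regulators (14) at -0.0039 and nuclear-retained long RNAs (7) at 0.05. Apart and lower early were 4 of the clock genes (36.4%) and 5 of the G1 regulators (35.7%), against 11.4% of all genes, and apart and higher early were 6 of the integrated stress response genes (31.6%), against 14%. Within these lists INSIG1, which holds back sterol synthesis, BHLHE40, a repressor of the clock, and CCND1 were called lower early. CCND1, the cyclin D1 of G1, was at 2.77, 2.79 and 3.71 FPKM early and at 6.35, 6.12 and 6.39 FPKM in the middle (difference -0.84, limma, adjusted p = 0.0369). ATF5, a stress-induced transcription factor, was at 41.9, 41.2 and 33.9 FPKM against 29.6, 27.6 and 25.9 FPKM (difference 0.48, limma, adjusted p = 0.0741).

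Most of the 49 genes called lower early belonged to no cell-cycle list. The same holds for all genes, since the G1/S and G2/M lists hold 93 and 114 of the 12253 tested. The 49 included TOP2A and FAM83D of the G2/M list. Most of the 49 stayed high at 40 to 46 h. IGFBP4, a secreted binding protein of insulin-like growth factors, gave the smallest adjusted p. It was at 21.3, 21.2 and 21.3 FPKM early, at 39.5, 42.7 and 46.5 FPKM in the middle and between 45.8 and 59.7 FPKM from 40 h to 46 h (difference -0.98 ± 0.06, limma, adjusted p = 0.00985). Its first-day values ran from 9.94 to 23.2 FPKM. It also stayed called without 28, 34, 36 or 38 h.

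Of the 49 genes, 48 had a mean over the 4 libraries at 40 to 46 h that was higher than every early library, and for 32 this mean was even above that of the middle window. Conversely all 12 genes called higher early had a late mean below every early library, though for 1 only was it below the middle mean. The early values entered the choice of these genes, so their place against the late mean follows in part from it. No share over all genes was computed. The late minus the middle mean had a median of 0.048 in the 49 and 0.11 in the 12, against -0.0063 over all genes.

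Genes known from blood cells were picked from the 49 after their values were seen. CD52, a small GPI-anchored antigen of leukocytes, was at 12.4, 11.3 and 12.1 FPKM early and 19.3, 23.7 and 28.2 FPKM in the middle, and CD68, a lysosomal protein of macrophages, was at 6.21, 7.71 and 9.13 FPKM against 15.4, 13.6 and 17.03 FPKM. RASGRP2, an exchange factor for RAP1, was at 2.58, 2.24 and 2.87 FPKM against 5.53, 5.84 and 7.13 FPKM. SPI1, the myeloid transcription factor PU.1, was at 7.04, 7.10 and 6.59 FPKM against 10.9, 10.4 and 10.3 FPKM. GP6, the collagen receptor of platelets, and LCP2, an adaptor of immune receptors, also passed the test.

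For the first 4 of these the middle libraries exceeded the early ones by 1.89 times for CD52 and CD68, 2.01 times for RASGRP2 and 1.46 times for SPI1 on the log2(FPKM + 1) scale. The first-cycle windows of these 4 overlapped, and the change between cycles passed the interaction test for each. GP6 and LCP2 were lower early in the first cycle too, by differences of -0.38 and -0.89, and their change between cycles was not significant (limma interaction, adjusted p = 0.0816 and 0.433). Without 28 h the difference of CD52 was -0.93 and missed the threshold (limma, adjusted p = 0.0635), and the difference of CD68 was -1.04 (limma, adjusted p = 0.0314). The lymphoid marker CD3D was at 5.78, 5.99 and 6.45 FPKM early and 9.06, 8.74 and 12.1 FPKM in the middle (limma, adjusted p = 0.0725). The monocyte marker LYZ was at 19.8–25.8 FPKM early and 23.2–24.7 FPKM in the middle, and the fibroblast marker COL1A2 at 2.68–3.09 and 2.79–3.94 FPKM. The part of other cells in these differences was not tested.

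**Figure D5:**
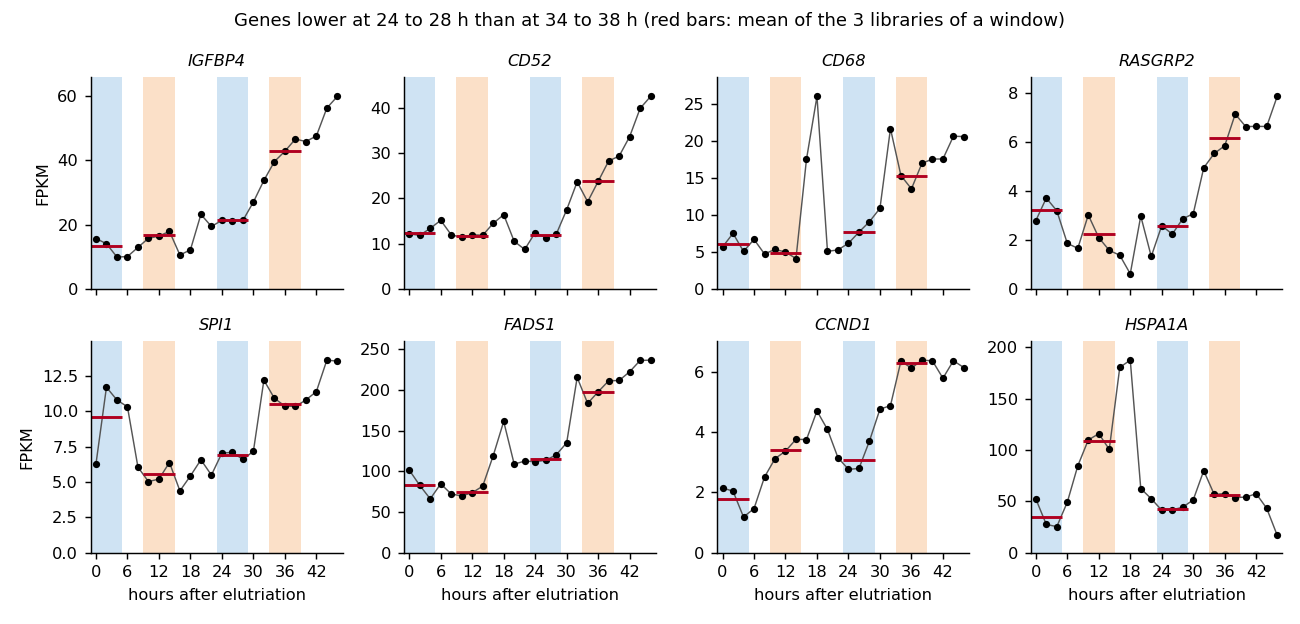
FPKM of 8 genes called lower at 24 to 28 h than at 34 to 38 h, in each of the 24 libraries against hours after elutriation, with early windows in blue, middle windows in orange and red bars for the mean of the 3 libraries of a window. IGFBP4, CD52, RASGRP2, SPI1 and FADS1 have their highest values outside 16 and 18 h after 30 h, while HSPA1A reaches its highest in the first cycle.

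Another 4 called genes act in lipid synthesis or its control, and they too were picked after their values were seen. FADS1, a desaturase of polyunsaturated fatty acids, was at 112, 114 and 120 FPKM early and 183, 198 and 211 FPKM in the middle, with 212 to 237 FPKM later (difference -0.77 ± 0.06, limma, adjusted p = 0.0269). FADS3 and FASN, the fatty acid synthase, were called too, with FASN at 107, 113 and 107 FPKM against 140, 131 and 140 FPKM. INSIG1 was at 75.6, 83.8 and 73.9 FPKM against 103, 111 and 121 FPKM. The cholesterol list, to which INSIG1 belongs, had 13 of 24 genes lower and 11 higher early. Of the 24, 3 (12.5%) were apart each way, where all genes gave 14% higher and 11.4% lower early.

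Among the 12 genes called higher early, TCF19, a growth-regulated putative transcription factor, was at 25.4, 25.9 and 24.9 FPKM against 19.5, 17.7 and 17.2 FPKM. ZBTB14, a zinc-finger repressor, was at 6.49, 6.34 and 6.31 FPKM against 4.74, 4.51 and 4.36 FPKM. RNF32 and ENSG00000257390 completed the protein-coding genes together with CCNE2, UNG and TSPOAP1. The other 5 were long noncoding RNAs, 2 of them (SEPSECS-AS1 and ANKHD1-DT) annotated as antisense, whose reads cannot be told apart from those of the opposite strand where counting does not use strand.

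Other large differences rested in part on the 28 h library. NME1-NME2, a read-through of overlapping genes, had the largest difference of the expressed protein-coding genes that were higher early. Its values were 53.5, 57.8 and 131 FPKM against 26.3, 31.2 and 37.7 FPKM, a difference of 1.21 (limma, adjusted p = 0.127) that was 0.81 without 28 h. The ribosomal protein gene RPL41 was at 62.8, 69.4 and 96.2 FPKM against 50.6, 53.3 and 49.3 FPKM, and its difference of 0.54 was 0.36 without 28 h. IFITM2, an interferon-induced membrane protein, was at 148, 135 and 48.6 FPKM against 150, 182 and 166 FPKM, and its difference of -0.73 was -0.23 without 28 h. HES4, a repressor of the Notch pathway, likewise went from -0.66 to -0.28. The departures at 28 h were shared by the libraries at 22 h and 30 h, which were in no window. In those, NME1-NME2 was at 141 and 147 FPKM and RPL41 at 111 and 111 FPKM. IFITM2 was at 41.7 and 50.2 FPKM and HES4 at 3.13 and 6.47 FPKM. For NOSTRIN, an adaptor of nitric oxide synthase trafficking, the difference of -0.74 missed the threshold (limma, adjusted p = 0.0741). The difference of NOSTRIN became -0.92 and passed the test without 28 h (limma, adjusted p = 0.0250).

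Of 79 cytosolic ribosomal protein genes, 62 had a higher mean early, with a median of 0.08. Only 7 (8.86%) were apart and higher early, below the 14% of all genes. The called microRNA gene MIR4639 was listed at 0 in all 3 early libraries and at 3.85, 1.64 and 3.604 FPKM in the middle.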

How the data were processed

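FPKM per gene were deposited by the authors, who aligned reads with STAR and quantified and normalized them with Cufflinks and Cuffnorm on GRCh37, per the submitters' processing notes. Versions and annotation are not given in the sources used here. The other deposited table, with scores that the authors obtained by Z-scoring and quantile normalizing the first, served as an alternative only. Each row had at least 1 FPKM in at least 12 time points. Read depth was unknown: FPKM times length of 1526 genes with 1 annotated transcript lay within 0.1 of whole reads for at most 34.8% of low values, against up to 33.3% with scrambled lengths.

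Samples were grouped by labelled time. Differences of log2(FPKM + 1) were tested for the 12253 of 12285 genes that averaged 1 FPKM or more, with limma 3.58.1 (R 4.3.3, moderated variance with intensity trend) on 3 libraries per window, two-sided, with Benjamini-Hochberg adjustment and a threshold of 0.05. The interaction test used 12 libraries. An exact permutation test of 3 against 3 cannot go below 0.1 and was not used. FPKM are relative, and the pseudocount understates folds of low genes. The fits were checked on simulated data.

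Windows, markers and gene lists were chosen with earlier results of these data known. Lists covered G1/S and G2/M groups, G1 regulators, erythroid, cholesterol, integrated stress response, glycolysis and hypoxia, heat shock, endoplasmic reticulum chaperone, immediate early, clock, long RNA, histone, ribosomal and mitochondrially encoded genes and cell type markers. Genes were named by rule: MCM5, CCNE2, CCNB1 and CCNA2, the 10 largest differences each way among protein-coding genes with windows apart and a mean of at least 10 FPKM, up to 3 per list by size with windows apart, and called G1/S and G2/M members. Other called or example genes, and the E2F1 and TOP2A promoters, were chosen after their values were seen. Names and lengths came from GENCODE 29 (12180 identifiers matched). No column was left unused. The summed level of the lymphoid markers is not reported here. Alternatives were other filters, pseudocounts, scalings, a GC correction, the cleaned table, an untrended variance and omission of each library.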

Additional observations from a re-analysis of the deposited data

Results flagged for a closer look

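For 24 of the 126 named genes, the early minus middle difference itself differed between the cycles (limma interaction over 12 libraries, adjusted p at most 0.05). Over all genes the share was 2.24%. Values below are the second-cycle minus the first-cycle difference of log2(FPKM + 1). Windows of 3 libraries were too small for a search for single outlying libraries.

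Most shifts were negative. Most named genes were chosen by their second-cycle values, and 49 of the 61 second-cycle calls were lower early. The direction of the shifts therefore follows in part from the choice. Over all genes, 165 interaction calls were positive and 110 negative. The shift was -1.41 for RASGRP2 (adjusted p = 0.0146), -1.204 for SPI1, -1.19 for CD68, -1.12 for KISS1R, -1.12 for NOSTRIN, -1.10 for MMP17 and -0.997 for CD52. It was -0.90 for FADS1, -0.76 for CD3D, -0.76 for VSIR, -0.72 for MCAM, -0.70 for STAR (adjusted p = 0.0111), -0.59 for FADS3, -0.58 for PDLIM4 and -0.36 for KRT10. For ALDOC (-0.89) and H2AC6 (-0.81) a first-cycle difference of 0.73 and 1.01 had shrunk or turned to -0.16 and 0.21.

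In the other direction, HSPA1A shifted by 1.28 and the mitotic gene CDCA3 by 0.73, and both stayed lower early. SPC25 shifted by 0.79, from -0.62 to 0.18. SEPSECS-AS1 shifted by 0.98, RPL26L1 by 0.71, HSPE1 by 0.51 and PMVK by 0.46. Each of these 4 lay below 0 in the first and above 0 in the second cycle. NOSTRIN and RPL26L1 had their most deviant early value at 28 h, with 15.2, 18.2 and 24.4 FPKM and 23.9, 26.2 and 31.8 FPKM at 24, 26 and 28 h. The interaction calls changed with single libraries, as given with their counts above, and no cause was tested.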

How the results depend on the processing

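The number of genes called in the second cycle moved from 61 to 39 with a mean of at least 10 FPKM (33 of the 61 were tested and all 33 kept), 114 with median centring, 125 with upper-quartile scaling, 119 with quantile normalization, 152 with the GC trend removed, 99 with the GC trend removed and 28 h left out, and 0 in the cleaned table (limma, 2421 at unadjusted p under 0.05). It ranged from 0 to 71 with 1 library left out. All 61 kept their sign under each alternative in which they were tested. With a library left out this was fixed in advance, because their windows were apart. Genes apart by 1.5-fold numbered 67, and 170 with a pseudocount of 0.1, 14 with a mean of at least 10 FPKM, 9 at 2-fold and 81 to 126 without 1 library. First-cycle calls (653) became 376 with quantile normalization, 1004 in the cleaned table, 11 without the variance trend and 0 to 1550 without 1 library, and interaction calls (275) became 118 without the trend and 12 to 1326 without 1 library. The share with the same sign was 64.5% with upper-quartile scaling, 67.8% with quantile normalization, 65.0% with the GC trend removed (64.5% also without 28 h), and 52.7% to 68.8% without 1 library. An alternative chosen after seeing the data, first-cycle genes apart by 1.5-fold, gave 69.6% of 296 genes. The slope ranged from 0.0611 to 0.185 without 1 library. The G1/S median ranged from 0.11 to 0.17 without 1 library, and the G2/M median was -0.086 with the GC trend removed. CCNA2 ranged from -0.069 to 0.0088 without 1 library, turning positive without 28 h, and changed to 0.0066 when the GC trend was also removed, and JUN to -0.0032 in the cleaned table. Among first-cycle values recomputed after seeing the data, the immediate early median ranged from -0.015 (without 0 h) to 0.56 and the replication enzyme median from -0.031 to 0.078 without 1 library. Shares and slopes could not be computed where fewer than 20 first-cycle genes were called, nor folds in the cleaned table. The cause of these changes was not tested, except that a filter tests fewer genes and an omitted library leaves fewer values. No paired analysis was possible because the labels give no replicate numbers, with 1 library per time point. Without replicate cultures or read depth, counting error and culture-to-culture variation are unknown.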

Other observations

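The integrated stress response genes, which restore amino acid supply, had a late second-day maximum, with a median peak at 46 h, and none of the 19 peaked at 24 to 28 h. Replication-dependent histone genes also had a median second-day peak at 46 h, and their median level, relative to each gene's mean, was 0.13 at 42 h, 0.29 at 44 h and 0.58 at 46 h after -0.08, -0.01 and -0.08 at 24, 26 and 28 h. All 5 mitochondrially encoded genes had overlapping windows in the second cycle. MT-ATP8 was at 1.301, 1.43 and 13.9 FPKM early and at 1.92, 2.85 and 1.88 FPKM in the middle, so that the 28 h library alone set its difference of 0.45.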
